A study of Saccharomyces cerevisiae with 9 samples.

Results

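The 5′ segment of 25S is the stretch of the 35S ribosomal RNA (rRNA) gene that encodes nucleotides 1 to 1132 of 25S rRNA, the first of 3 equal parts of this RNA. It was taken by annotation alone, as gene positions 3252 to 4383, and holds 1132 of the 6858 single-nucleotide positions measured. In genome build R64 it lies at chrXII:463187-464318 on the minus strand, inside the exon of the rRNA gene RDN25-2, which belongs to the RDN37-2 transcription unit. Internal transcribed spacer 2 (ITS 2) lies directly before it and the middle segment of 25S directly after it. Occupancy by RNA polymerase I (Pol I) was measured by NET-seq (native elongating transcript sequencing) in the budding yeast Saccharomyces cerevisiae. There were 3 groups with 3 libraries each: WT, the control with a wild-type genotype, rpa34△ and rpa49△. Each deletion strain lacks the gene for 1 Pol I subunit. All cultures were untreated and grown at 30 °C. The labels do not state that replicate libraries were grown as separate cultures, so every p-value measures only the spread between the libraries at hand.

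Pol I makes the single long precursor from which 18S, 5.8S and 25S rRNA are cut. Its subunits Rpa49 and Rpa34 bind each other as a peripheral module related to the Pol II factor TFIIF, and yeast can grow without either. 25S is the large rRNA of the 60S subunit, and in the ribosome its 5′ end is paired with 5.8S rRNA. NET-seq pulls down the polymerase together with its nascent RNA and maps the last nucleotide of each RNA. A position with many RNA 3′ ends is one where polymerases were found often, which can follow from slow movement or a pause there.

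The sequences below show the RNA around the positions on which the results turn, since the letters next to the RNA 3′ end are what the polymerase had just added or was about to add. Each runs 5′ to 3′ from 10 nt before to 5 nt after the mapped 3′ end, in the RNA letters of the strand that is transcribed, and the capital letter marks that 3′ end. They come from the base column of the deposited tables. The 8 positions with the highest occupancy in WT come first, in falling order.
25S nucleotide 519, chrXII:463795-463810: ugguggcaggAuaaau
25S nucleotide 372, chrXII:463942-463957: uggaaagaugAaaaga
25S nucleotide 247, chrXII:464067-464082: gagugcgguuCuuugu
25S nucleotide 238, chrXII:464076-464091: uguggcgaggAgugcg
25S nucleotide 1098, chrXII:463216-463231: uggacauuugAaugaa
25S nucleotide 520, chrXII:463794-463809: gguggcaggaUaaauc
25S nucleotide 687, chrXII:463627-463642: aguguuugggUguaaa
25S nucleotide 440, chrXII:463874-463889: uugaucagacAuggug
The next sequences are those with the largest losses of occupancy in a deletion strain.
25S nucleotide 201, chrXII:464113-464128: uccuuggaacAggacg
25S nucleotide 20, chrXII:464294-464309: caaaucagguAggagu
25S nucleotide 653, chrXII:463661-463676: ugaaacacggAccaag
25S nucleotide 1088, chrXII:463226-463241: uaauugaacgUggaca
25S nucleotide 285, chrXII:464029-464044: uuguuugggaAugcag
25S nucleotide 475, chrXII:463839-463854: uguggguaggGgaauc
The last 3 are the largest gain in each comparison, for rpa34△ against WT, rpa49△ against WT and rpa49△ against rpa34△ in that order.
25S nucleotide 60, chrXII:464254-464269: uaagcggaggAaaaga
25S nucleotide 862, chrXII:463452-463467: ugguggaggcUcguag
25S nucleotide 698, chrXII:463616-463631: guaaaacccaUacgcg

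Reads in the 5′ segment numbered 817898 to 944422 in the WT libraries, 480411 to 641797 in rpa34△ and 222892 to 286839 in rpa49△. No position of the segment was at 0 in any library. The median position held 584 to 646 reads in WT, 341.5 to 457 in rpa34△ and 156 to 205 in rpa49△, so values at low positions are least precise in rpa49△. Libraries of a group differed by more than sampling noise, with a chi-square per degree of freedom of 2.30 to 10.4, and none looked like a library deposited under several names. The tables hold the rRNA gene alone, so the deleted genes themselves were not analysed here.

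The first question was whether the deletions moved polymerase occupancy into or out of this segment. Of all reads on the gene, the 5′ segment of 25S held 18.4%, 18.3% and 17.6% in the WT libraries, 18.1%, 17.95% and 18.4% in rpa34△, and 18.5%, 17.9% and 17.9% in rpa49△. The 3 groups overlapped, with means of 18.1% ± 0.418 (SD, n = 3), 18.2% ± 0.236 and 18.1% ± 0.358. Two-sided exact permutation tests gave p = 0.8, 1 and 0.8 for rpa34△ against WT, rpa49△ against WT and rpa49△ against rpa34△, all 1 after adjustment over these 3 comparisons. The intervals from read sampling were narrow, at most ±0.0675 points (exact Clopper-Pearson, 95%), and cover counting error only. Every value here is a share of the reads of its library, so a gain in one region can follow from a loss in another. Fewer polymerases per gene and fewer active genes cannot be told apart.

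On the scale of mature rRNA, which leaves the spacers out, the segment held less in both deletions. Its share of the reads on 18S, 5.8S and 25S was 20.2%, 20.1% and 19.8% in WT, 19.2%, 19.2% and 19.5% in rpa34△, and 19.1%, 18.4% and 18.4% in rpa49△. No library of one group reached the range of another. The means were 20.04% ± 0.244, 19.3% ± 0.186 and 18.6% ± 0.400 (SD, n = 3), a difference from WT of -0.77 points for rpa34△ and -1.42 for rpa49△, and of -0.66 between the deletions. Each exact permutation test gave p = 0.1, which is the smallest that 3 libraries against 3 allow, and 0.1 after adjustment over 3. Mature rRNA itself took 90.4% ± 1.00 of the reads of the gene in WT, 94.2% ± 0.497 in rpa34△ and 97.4% ± 0.224 in rpa49△. In log2 terms this share was 0.06 higher in rpa34△ and 0.11 higher in rpa49△ than in WT, and 0.05 higher in rpa49△ than in rpa34△. Log2 changes on the mature rRNA scale are lower by about these amounts, less exactly so at low positions, where the 10 RPM added before the log weigh more.

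**Figure D1:**
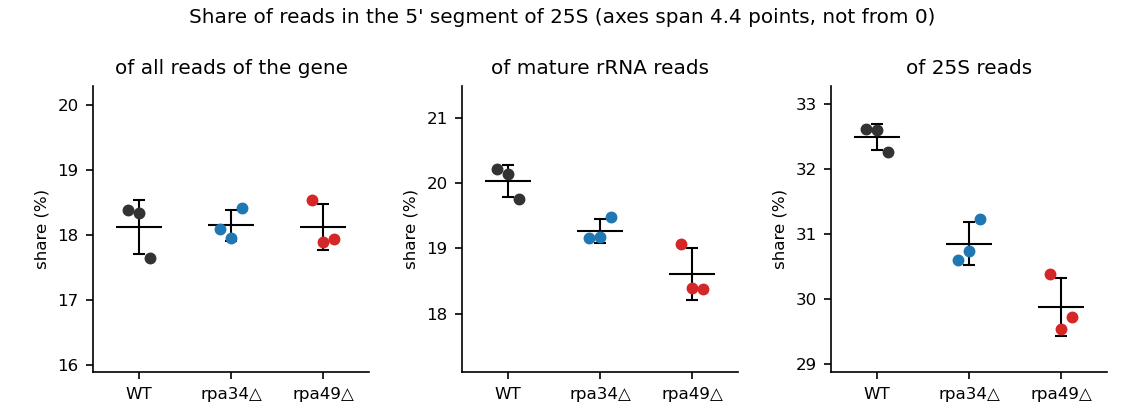
Share of reads in the 5′ segment of 25S (vertical axes, %, not starting at 0) on 3 denominators, with 1 point per library, a bar at the group mean and error bars of 1 SD (n = 3). The strains overlap on the whole-gene scale and separate on the mature rRNA and 25S scales, where WT is highest and rpa49△ lowest.

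Within 25S the order was the same. The 5′ segment held 32.6%, 32.6% and 32.3% of 25S reads in WT, 30.6%, 30.7% and 31.2% in rpa34△, and 30.4%, 29.5% and 29.7% in rpa49△. Means were 32.5% ± 0.204, 30.9% ± 0.330 and 29.9% ± 0.449, the groups did not overlap, and each exact permutation test gave p = 0.1 (0.1 adjusted over 3). Per nucleotide on the whole-gene scale, in reads per 1000000 (RPM), the level of the 5′ segment was 160.1 ± 3.69 in WT, 160.4 ± 2.09 in rpa34△ and 160.1 ± 3.16 in rpa49△. The middle segment of 25S, by contrast, stood at 163 ± 1.45, 171 ± 0.594 and 184 ± 1.39 RPM per nt, and the 3′ segment at 170.1 ± 3.61, 189 ± 2.501 and 192 ± 2.55. The ratio of the 5′ to the middle segment was 0.985 ± 0.0171 in WT, 0.939 ± 0.00981 in rpa34△ and 0.871 ± 0.0196 in rpa49△. Its 3 pairs of groups did not overlap (exact permutation p = 0.1 each). The ratio of the 5′ to the 3′ segment was 0.941 ± 0.00535, 0.851 ± 0.0177 and 0.835 ± 0.0207. Both deletions lay below WT (exact permutation p = 0.1 each), and the deletions overlapped (p = 0.5). These ratios were not adjusted for their number.

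Inside the segment, reads lay further from the 5′ end in both deletions. The occupancy-weighted mean position was nucleotide 559 ± 2.06 in WT, 572 ± 1.39 in rpa34△ and 576 ± 0.862 in rpa49△ (SD, n = 3), where even occupancy would put it in the middle of the segment. The shift from WT was 12.8 nt for rpa34△ and 17.1 nt for rpa49△, and 4.33 nt separated the deletions. None of the groups overlapped, and each exact permutation test gave p = 0.1 (0.1 adjusted over 3). Evenness was measured with the Gini coefficient, which is 0 for equal occupancy at every position. It was 0.399 ± 0.0151 in WT, 0.394 ± 0.00890 in rpa34△ and 0.407 ± 0.00531 in rpa49△. WT overlapped with both deletions (exact permutation p = 0.7 and 0.5, adjusted 0.7 each), while the deletions did not overlap with each other (p = 0.1, adjusted 0.3).

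Single positions ranged widely in every strain. In WT the mean per position ran from 7.49 to 1347 RPM with a median of 126, in rpa34△ from 4.73 to 1232 with a median of 130.1, and in rpa49△ from 1.12 to 986 with a median of 129.6. The 11 highest positions of each strain held 5.04%, 5.12% and 4.80% of the segment's reads in WT, rpa34△ and rpa49△. As a description over the 1132 positions, log2(RPM + 10) correlated at 0.980 to 0.990 between WT libraries, at 0.979 to 0.990 between rpa34△ libraries and at 0.967 to 0.976 between rpa49△ libraries. Between strains it was 0.924 to 0.951 for WT with rpa34△, 0.861 to 0.887 for WT with rpa49△, and 0.930 to 0.955 for the deletions. The shared sequence and the different depths enter all of these values.

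The segment's limits are annotation limits, and occupancy was low on both sides of the first of them. The last nucleotide of ITS 2 had 11.4 ± 1.35 RPM in WT, and nucleotide 1 of 25S had 7.49 ± 0.634 in WT, 7.30 ± 1.29 in rpa34△ and 3.53 ± 1.16 in rpa49△. At the other limit, nucleotide 1132 had 90.2 ± 7.77, 74.9 ± 3.69 and 72.7 ± 3.97, and nucleotide 1133, in the middle segment, had 63.4 ± 4.57, 53.3 ± 7.11 and 48.6 ± 18.6. Low values gathered at the 5′ end of 25S. Nucleotide 8, singled out after its values were seen, had 22.5 ± 0.651 RPM in WT, 8.52 ± 0.207 in rpa34△ and 1.12 ± 0.277 in rpa49△. A second low stretch, also noticed in the data, lay at nucleotides 647 to 651. Nucleotide 649 there had 10.3 ± 0.995, 6.40 ± 1.28 and 1.77 ± 0.899 RPM. The rpa49△ values at nucleotides 8 and 649 rest on few reads, since 1 read was worth 0.638 to 0.805 RPM in that strain. The fewest reads at any position of the segment were 2, 2 and 1 in its libraries.

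To follow the profile along the segment, reads were summed in 50-nt bins counted from the start of the gene, 23 of which belong to the segment. The first also holds 1 nt of ITS 2 and the last reaches into the middle segment of 25S. In WT the densest bin, nucleotides 400 to 449, had 15607, 16873 and 16017 RPM, and the sparsest, nucleotides 750 to 799, had 5208, 4627 and 4679. The densest bin was the same in the deletions, at 15342 ± 749 RPM in rpa34△ and 15718 ± 1194 in rpa49△ beside 16166 ± 646 in WT. Neither deletion passed the test against WT there, with limma adjusted p = 0.319 and 0.644.

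**Figure D2:**
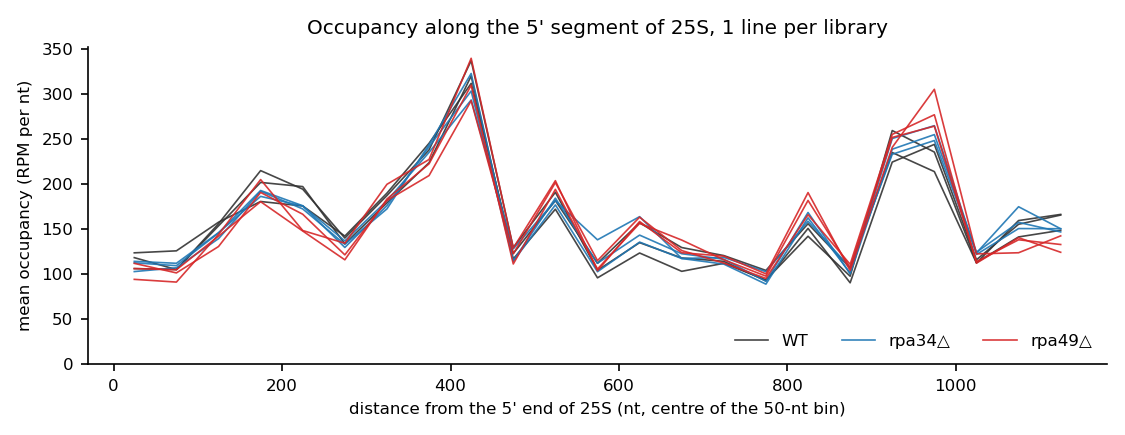
Mean occupancy per nucleotide (vertical axis, RPM per nt, whole-gene scale) in 50-nt bins along the 5′ segment of 25S (horizontal axis, nt from the 5′ end), with 1 line per library. The 9 libraries follow one profile that peaks in the bin at nucleotides 400 to 449, and in RPM they spread most in the bin at nucleotides 950 to 999.

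For rpa34△ against WT, none of the 23 bins passed limma at an adjusted p of 0.05 on the whole-gene scale, where 37% of the gene's 138 bins passed (15.9% higher, 21% lower). Of the 23 bins of the segment, 4 had an unadjusted limma p under 0.05. This was not counted over the gene, so the number does not set the segment apart. edgeR's quasi-likelihood test on recovered reads also called 0, beside 24 higher and 29 lower of 138 over the gene. On the mature rRNA scale 3 bins were lower and 0 higher, beside 16.8% of bins called (7.48% higher, 9.35% lower). These were nucleotides 100 to 149, at -0.17 ± 0.04 on the log2 scale (SE, adjusted p = 0.0135), 200 to 249 (-0.17 ± 0.05, 0.0455) and 1100 to 1149 (-0.16 ± 0.05, 0.0397).

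For rpa49△ against WT, 4 of the 23 bins were higher and 4 lower on the whole-gene scale, where 62.3% of the gene's bins were called (30.4% higher, 31.9% lower). The share of member bins called, 8 of 23 or 34.8%, was thus below that of the gene on this scale. The bin at nucleotides 200 to 249 had 8791, 9726 and 9869 RPM in WT, 8804, 8626 and 8789 in rpa34△ and 7426, 7399 and 8332 in rpa49△. All rpa49△ libraries were below all WT libraries, and the bin fell by 0.29 in log2 terms (SE 0.07, limma adjusted p = 0.00209). This bin holds nucleotides 201 and 238, whose own falls are given below. The call was lost in 1 of 15 alternatives, that with the median position of the bin in place of the sum. There the change was -0.11 in rpa49△ (limma adjusted p = 0.0581) and 0.05 in rpa34△ (adjusted p = 0.399). The last bin, nucleotides 1100 to 1149, had 8322, 8286 and 7437 RPM in WT and 7129, 6649 and 6217 in rpa49△. It fell by 0.27 (SE 0.07, limma adjusted p = 0.00495), again without overlap. The bin before it, nucleotides 1050 to 1099, fell by 0.18 (adjusted p = 0.0372), but this call was lost in 5 of 15 alternatives, among them those without rpa49△ replicate 1, WT replicate 1 or WT replicate 2 (adjusted p = 0.142, 0.124 and 0.112). Its adjusted p ranged from 0.00396 to 0.142.

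Of the 4 bins that rose in rpa49△, the 3 with the largest rises are given here. Nucleotides 950 to 999 had 10702, 12216 and 11788 RPM in WT, 12760, 13257 and 12429 in rpa34△ and 15278, 13229 and 13862 in rpa49△. Both deletions lay above WT in all libraries, and the rise of rpa49△ was 0.29 (SE 0.07, limma adjusted p = 0.00423), while rpa34△ did not pass at 0.15 (SE 0.06, adjusted p = 0.0581). Nucleotides 800 to 849 rose by 0.26 (SE 0.06, adjusted p = 0.00393), from 7485 ± 352 to 8979 ± 624 RPM. Nucleotides 600 to 649 rose by 0.21 (SE 0.08, adjusted p = 0.0328), a call lost in 8 of 15 alternatives, those without rpa49△ replicate 1 or 3 or WT replicate 2 or 3 included (adjusted p 0.00132 to 0.392 over all of them). With scaling on mature rRNA no rise passed (0 higher and 8 lower, beside 36.4% of bins called, 12.1% higher and 24.3% lower). There the changes at nucleotides 950 to 999 and 800 to 849 were 0.18 and 0.15 with adjusted p = 0.0821 and 0.0733. Over all alternatives the adjusted p of the former lay between 0.000373 and 0.119, and that of the latter between 0.00274 and 0.161. The falls at nucleotides 200 to 249 and 1100 to 1149 were larger on that scale, at -0.40 and -0.37. The other lower bins there were the first bin and nucleotides 50 to 99, 100 to 149, 250 to 299, 350 to 399 and 1050 to 1099. Most of the 8 thus lay toward the 5′ end of the segment.

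Directly between the deletions, 1 bin was higher in rpa49△ than in rpa34△ and 3 were lower, beside 38.4% of the gene's bins called (10.1% higher, 28.3% lower). On the mature rRNA scale 0 were higher and 4 lower, beside 21.5% called (7.48% higher, 14% lower). The largest difference was at nucleotides 1050 to 1099, where rpa34△ had 7880, 7535 and 8749 RPM, rpa49△ 6190, 6911 and 7027, and WT 7980, 7774 and 7070. The rpa49△ libraries were the lowest 3 of the 9, and the bin fell by 0.26 against rpa34△ (SE 0.07, limma adjusted p = 0.0114). Nucleotides 200 to 249 fell by 0.18 (adjusted p = 0.0217; range over alternatives 0.00204 to 0.0902) and 1100 to 1149 by 0.17 (adjusted p = 0.0395; range 0.00559 to 0.104). The former call was lost in 3 of 15 alternatives, those without trend, without rpa49△ replicate 2 and without rpa34△ replicate 1. The latter was lost in 7 of 15, among them every one that left out a library except rpa49△ replicate 1. Nucleotides 500 to 549 rose by 0.14 (adjusted p = 0.0247), from 9054 ± 189 to 10002 ± 255 RPM, and this rise was not called on the mature rRNA scale (0.10, adjusted p = 0.152; range 0.000452 to 0.152 over all alternatives) or without any 1 of the rpa34△ libraries (adjusted p = 0.0775, 0.121 and 0.0534). As a description, the change of the 23 bins correlated with their GC content at -0.17, 0.05 and 0.20 for rpa34△ and rpa49△ against WT and for rpa49△ against rpa34△. The segment as a whole has 46.7% GC, the middle segment 50.6% and the 3′ segment 46.5%.

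**Figure D3:**
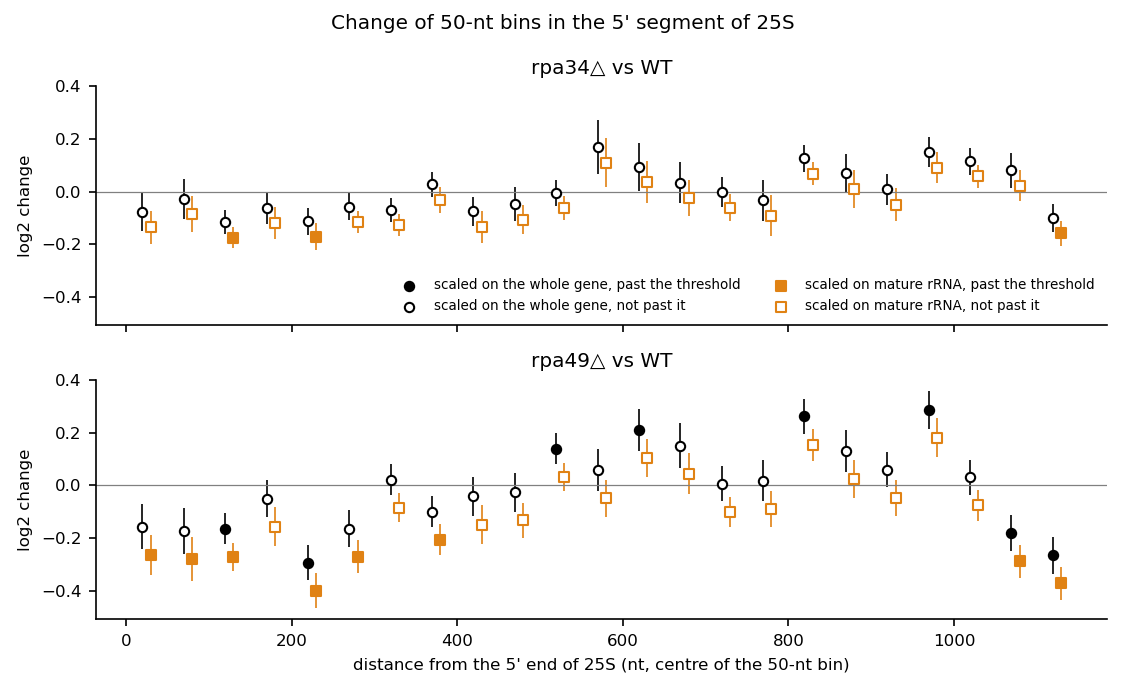
Log2 change of each 50-nt bin (vertical axis) along the 5′ segment of 25S (horizontal axis, nt from the 5′ end) against WT, in 1 panel per deletion, on the whole-gene and mature rRNA scales. Filled points passed limma at an adjusted p of 0.05, open points did not, and error bars are the SE. No bin passed for rpa34△ on the whole-gene scale. In rpa49△ on that scale, bins near nucleotides 200 and 1100 were among those that fell, and bins near 800 and 950 among those that rose. On the mature rRNA scale no rise passed in rpa49△, and the falls that passed lay mostly toward the 5′ end.

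At the level of single nucleotides the deletions changed many positions in both directions. For rpa34△ against WT, 1121 of the 1132 positions passed the minimum mean of 10 RPM, and 206 were higher and 175 lower by limma. The 11 positions below the minimum were nucleotides 1, 5, 7, 9 to 11, 646 to 649 and 651. Over the whole gene 43.2% of tested positions were called (19.8% higher, 23.4% lower). Without rpa34△ replicate 1 the count was 129 higher and 123 lower of 1125 tested, beside 812 and 1173 of 6452 over the gene. On the mature rRNA scale the split turned to 138 higher and 233 lower of 1125 tested, beside 34.4% called (15.9% higher, 18.5% lower). The 175 positions lower on the whole-gene scale were all lower on the mature scale too, and 138 of the 206 higher ones remained higher. This was largely given in advance, since the mature scale lowers every log2 change by nearly the same amount. The median log2 change of the tested positions was 0.04 on the whole-gene scale, beside 0.01 over all positions tested. Among the 381 called positions 11 had fallen at least 2-fold on the fitted log2 scale and 0 had risen as much. Changes of 2-fold were not counted over the gene, so these numbers do not set the segment apart.

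For rpa49△ against WT, 282 positions were higher and 252 lower of 1121 tested, beside 57.6% called over the gene (27.1% higher, 30.5% lower). The share of member positions called on the whole-gene scale, 381 of 1121 for rpa34△ and 534 of 1121 for rpa49△, was below that of the gene in both comparisons with WT. With scaling on mature rRNA the shares lay nearer, at 33.0% beside 34.4% for rpa34△ and 45.1% beside 45.4% for rpa49△. On the mature rRNA scale 198 were higher and 308 lower of 1123, beside 45.4% called (21.5% higher, 23.9% lower). All 252 lower positions were lower on the mature scale too, and 198 of the 282 higher ones remained higher, again largely given in advance by the scale. The median log2 change was 0.03, beside 0.01 over all positions. At least 2-fold changes on the fitted scale numbered 5 up and 37 down, again without a count over the gene. Both comparisons share the WT libraries.

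Between the deletions, 88 positions were higher in rpa49△ and 132 lower of 1118 tested, beside 30.4% called over the gene (10.9% higher, 19.5% lower). Without rpa34△ replicate 1 these were 44 and 93 of 1117, beside 369 and 940 of 6031 over the gene. On the mature rRNA scale the counts were 51 and 143 of 1120, beside 19.1% called (7.63% higher, 11.5% lower). The 132 lower positions were all lower on the mature scale, and 51 of the 88 higher ones remained higher, largely given in advance here too. Of the called positions 14 had fallen at least 2-fold and 0 had risen as much, which was not counted over the gene either.

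Called positions were counted in the first and the last 566 nt, as a description whose difference was not tested. For rpa34△ against WT, 69 positions were higher and 108 lower of 560 tested in the first 566 nt, and 137 were higher and 67 lower of 561 in the last, where over the gene 19.8% were higher and 23.4% lower. For rpa49△ against WT the counts were 97 higher and 150 lower of 559, then 185 higher and 102 lower of 562, beside 27.1% and 30.5% over the gene. Between the deletions they were 49 and 79 of 558, then 39 and 53 of 560, beside 10.9% and 19.5%. With scaling on mature rRNA the first 566 nt had 39 higher and 147 lower positions of 562 for rpa34△, and the last 99 and 86 of 563, beside 15.9% and 18.5%. For rpa49△ on that scale they were 66 and 190 of 560, then 132 and 118 of 563, beside 21.5% and 23.9%.

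The positions that polymerases occupied most in WT largely stayed high. Nucleotide 519 was the highest, with 1307, 1410 and 1325 RPM in WT, 1222, 1297 and 1177 in rpa34△ and 661, 782 and 822 in rpa49△. It is the A of gcaggAu in the first sequence above. The rpa49△ libraries were clearly below the others, and the position fell by 0.83 (SE 0.12, limma adjusted p = 1.43e-05) against WT and by 0.70 (SE 0.11, adjusted p = 0.000157) against rpa34△. For rpa34△ against WT the change was -0.13 (adjusted p = 0.328). The very next nucleotide, 520, did not follow it: its means were 759 ± 44.8, 785 ± 31.6 and 852 ± 53.9 RPM, and no comparison passed (adjusted p = 0.692, 0.230 and 0.417 for rpa34△ and rpa49△ against WT and between the deletions).

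Among the high positions, nucleotide 238 fell in both deletions. It had 804, 871 and 949 RPM in WT, 589, 563 and 614 in rpa34△ and 449, 411 and 548 in rpa49△, with no overlap between any of the groups. It fell by 0.56 (SE 0.09, limma adjusted p = 0.000284) in rpa34△ and by 0.89 (SE 0.12, adjusted p = 5.84e-06) in rpa49△. Only 9 nt further, nucleotide 247 had 941 ± 154, 1122 ± 53.6 and 986 ± 180 RPM and passed in no comparison. Nucleotide 372 had 1001 ± 72.5, 963 ± 68.6 and 843 ± 20.2 RPM and did not pass on the whole-gene scale either. On the mature rRNA scale nucleotide 372 did pass for rpa49△ against WT, with a change of -0.35 (limma adjusted p = 0.0179). Nucleotide 1098 rose in rpa34△ by 0.34 (adjusted p = 0.0242), from 838 ± 114 to 1056 ± 67.3 RPM, and nucleotide 687 by 0.24 (adjusted p = 0.0440), from 711 ± 30.0 to 839 ± 43.9. Nucleotide 440 fell in rpa34△ by 0.30 (adjusted p = 0.0240), from 675 ± 73.0 to 545 ± 35.1. None of these 3 calls held throughout 16 alternatives. That at 1098 was lost in 6 (adjusted p 0.00159 to 0.113) and that at 440 in 4 (0.00258 to 0.0943), both of them without rpa34△ replicate 1 or 3 or WT replicate 2 or 3. That at 687 was lost in 9 (0.0415 to 0.182), among them every one that left out a library except rpa34△ replicate 3. With scaling on mature rRNA 1098 and 687 had an adjusted p of 0.0596 and 0.132. Of these 8 positions, 5 end in A, a base at 27.7% of the segment's positions. This count was not tested and not made over the gene.

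The largest fall in the segment on the fitted log2 scale was at nucleotide 201. It had 571, 732 and 703 RPM in WT, 161, 188 and 179 in rpa34△ and 38.1, 42.1 and 49.9 in rpa49△. The 3 strains did not overlap, and the mean in rpa49△ was 15.4 times lower than in WT. The log2 change was -1.86 (SE 0.10, limma adjusted p = 8.35e-09) in rpa34△, -3.67 (SE 0.12, adjusted p = 1.18e-14) in rpa49△ and -1.80 (SE 0.12, adjusted p = 2.84e-08) between the deletions. Nucleotide 20, near the 5′ end of 25S, had 453, 465 and 492 RPM in WT, 124, 129 and 135 in rpa34△ and 42.0, 69.5 and 47.5 in rpa49△. It fell by 1.78 (limma adjusted p = 1.22e-09) in rpa34△ and fell by 2.95 (adjusted p = 9.38e-13) in rpa49△, again with no overlap.

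Other positions fell in both deletions in the same order of strains. Nucleotide 653 went from 112 ± 5.30 RPM in WT to 26.2 ± 3.83 in rpa34△ and 7.12 ± 1.24 in rpa49△. Only 9 to 13 reads per library stand behind the last value. Its log2 change was -1.75 (limma adjusted p = 4.06e-08) and -2.83 (adjusted p = 2.13e-12). Nucleotide 128 had 287 ± 17.3, 101 ± 1.56 and 63.0 ± 2.33 RPM, and fell by 1.41 in rpa34△ (adjusted p = 1.42e-08). Nucleotides 285 and 475 stood out between the deletions. Nucleotide 285 had 660 ± 65.2, 406 ± 38.0 and 129 ± 17.1 RPM and fell by 1.58 from rpa34△ to rpa49△ (adjusted p = 4.08e-08). Nucleotide 475 had 585 ± 55.4, 291 ± 23.2 and 93.1 ± 11.3 RPM and fell by 1.55 (adjusted p = 4.08e-08).

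Nucleotide 1088 was different, since its loss was seen in rpa49△ and not in rpa34△. It had 274, 283 and 299 RPM in WT, 299, 333 and 259 in rpa34△ and 31.7, 38.3 and 53.9 in rpa49△. WT and rpa34△ overlapped and differed by 0.05 in log2 terms (SE 0.09, limma adjusted p = 0.693), and the rpa49△ libraries were far below both. In rpa49△ it fell by 2.55 against WT (SE 0.14, adjusted p = 1.48e-11) and fell by 2.60 against rpa34△ (SE 0.15, adjusted p = 4.12e-09), which is the direct test of the difference. Nucleotide 1098, 10 nt further on and one of the 8 highest positions, had 947 ± 81.6 RPM in rpa49△ and did not pass against WT (adjusted p = 0.239).

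**Figure D4:**
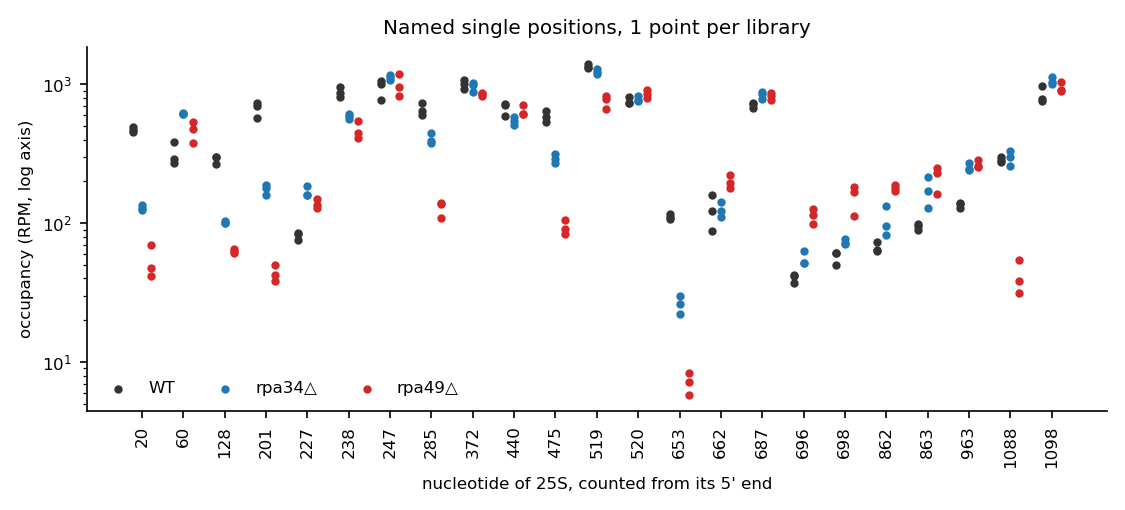
Occupancy of the named single positions (vertical axis, RPM on a log axis) by nucleotide of 25S (horizontal axis), with 1 point per library. Nucleotides 201, 20 and 653 step down from WT to rpa34△ to rpa49△, while at nucleotide 1088 rpa34△ lies with WT and rpa49△ far below.

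The largest gains at single positions of the segment were smaller than the largest losses, which was not compared with the rest of the gene. In rpa34△ the largest gain was at nucleotide 60, with 383, 273 and 289 RPM in WT, 613, 616 and 625 in rpa34△ and 377, 532 and 473 in rpa49△. The rpa34△ libraries were the highest 3, and the rise was 0.96 (SE 0.11, limma adjusted p = 1.15e-05) in rpa34△ and 0.53 (SE 0.14, adjusted p = 0.00289) in rpa49△. From rpa34△ to rpa49△ it fell by 0.43 (adjusted p = 0.0104). Nucleotide 227 rose by 0.96 in rpa34△ (adjusted p = 2.66e-06), from 81.6 ± 5.28 to 169 ± 14.6 RPM, and stood at 138 ± 10.05 in rpa49△. Nucleotide 963 rose by 0.85 (adjusted p = 2.34e-06), from 135 ± 5.66 to 252 ± 17.5 RPM, and stood at 266 ± 16.4 in rpa49△.

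In rpa49△ the largest gain was at nucleotide 862. It had 63.8, 72.7 and 63.0 RPM in WT, 96.1, 82.2 and 132 in rpa34△ and 171, 180 and 188 in rpa49△. The groups did not overlap, and the rise was 0.55 (limma adjusted p = 0.00638) in rpa34△ and 1.31 (SE 0.12, adjusted p = 1.43e-08) in rpa49△. Its neighbour, nucleotide 863, rose by 0.76 (adjusted p = 0.000610) and 1.07 (adjusted p = 2.33e-06), from 94.9 ± 4.88 to 171 ± 43.1 and 213 ± 46.5 RPM. A second pair lay at nucleotides 696 and 698, which went from 40.6 ± 2.83 and 57.4 ± 6.35 RPM in WT to 113 ± 14.3 and 154 ± 36.4 in rpa49△. Their rises were 1.28 (adjusted p = 1.39e-07) and 1.26 (adjusted p = 1.08e-06) against WT, and 0.91 (adjusted p = 5.69e-05) and 0.95 (adjusted p = 0.000141) against rpa34△. Nucleotide 662 rose by 0.64 from rpa34△ to rpa49△ (adjusted p = 0.000609), from 125 ± 15.9 to 199.5 ± 22.6 RPM. It lies 9 nt past nucleotide 653, one of the largest losses.

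The sequence at the RNA 3′ end was then compared over all reads of the segment. In WT, 36.4% ± 0.316 of the reads ended in A, although A is at 27.7% of the positions. The share was 36.2% ± 0.0144 in rpa34△, which overlapped with WT (exact permutation p = 0.4, adjusted 0.45 over 36 tests), and 33.9% ± 0.664 in rpa49△, below all libraries of both other groups (p = 0.1 each, adjusted 0.116). Reads ending in G made up 26.1% ± 0.421, 24.2% ± 0.273 and 24.3% ± 0.607, with WT above both deletions (exact permutation p = 0.1 each, adjusted 0.116). Reads ending in U made up 22.9% ± 0.225, 24.4% ± 0.140 and 25.4% ± 0.194, and those ending in C 14.5% ± 0.433, 15.2% ± 0.150 and 16.4% ± 0.847. For both of these bases no groups overlapped and p was 0.1 in each comparison (adjusted 0.116).

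The neighbouring bases, compared after the data had been seen, also differed. In WT 37.9% ± 0.159 of the reads had G just before the 3′ end, where G is at 29.1% of positions. The share was 35.9% ± 0.245 in rpa34△ and 34.6% ± 0.390 in rpa49△, with no overlap (exact permutation p = 0.1 each, adjusted 0.116 over 36 tests). A before the 3′ end made up 24.5% ± 0.602, 27.0% ± 0.341 and 26.5% ± 0.800, above WT in every library of the deletions. A just after the 3′ end made up 33.0% ± 0.369, 34.6% ± 0.139 and 35.2% ± 0.409.

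The rest of 25S was set beside the segment for the same measures. G before the 3′ end had shares of 36.5% ± 0.170 in WT, 35.1% ± 0.259 in rpa34△ and 34.1% ± 0.669 in rpa49△ there. The change from WT in the 5′ segment minus that in the rest was -0.64 points for rpa34△ and -0.94 for rpa49△ (exact permutation p = 0.1 each, unadjusted). Reads ending in A made up 30.3% ± 0.260, 30.6% ± 0.0385 and 29.0% ± 0.286 in the rest of 25S. The change of this share in rpa49△ against WT was -2.52 points in the 5′ segment and -1.34 in the rest, a difference of -1.18 (exact permutation p = 0.1, unadjusted). Other changes of the 5′ segment were seen in the rest of 25S too, some of them to a different extent. A before the 3′ end gained 2.34 points in rpa34△ and 2.21 in rpa49△ in the rest, and the 5′ segment differed from that by 0.16 and -0.15 (exact permutation p = 0.4 and 0.6). A after the 3′ end gained 1.44 and 1.86 there, with differences of 0.22 and 0.37 (exact permutation p = 0.2 and 0.4). U at the 3′ end gained 1.82 and 2.37 there, with differences of -0.32 and 0.11 (exact permutation p = 0.1 and 0.8). G at the 3′ end changed by -2.50 points in rpa34△ and -2.09 in rpa49△ in the rest, and the 5′ segment changed less, by 0.54 and 0.20 (exact permutation p = 0.1 and 0.2). C at the 3′ end gained 0.45 and 1.07 points there, and the 5′ segment gained more, by 0.25 and 0.86 (exact permutation p = 0.1 each). In the rest, G after the 3′ end changed by 0.03 and -0.23 points, C before it by -0.05 and 0.36 and C after it by -0.25 and 0.18. The 5′ segment differed from these by -0.61 and -1.10, 0.42 and 1.06, and 0.32 and 0.51 (exact permutation p = 0.1 each). For U before the 3′ end the differences were 0.06 and 0.03 (exact permutation p = 0.7 and 0.8). For U after it they were 0.08 and 0.22 (exact permutation p = 0.5 and 0.2). None of these values was adjusted.

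Called positions were also counted by base, beside the same count over all tested positions of the gene. With A before the 3′ end, 95 of 309 tested positions were higher in rpa34△ than in WT and 23 lower, which is 30.7% and 7.44%, beside 32.1% and 15.3% over the gene. With G before it 46 of 329 were higher and 82 lower, 14.0% and 24.9% beside 15.6% and 32.8%. In rpa49△ against WT, 33.3% were higher and 20.4% lower with A before the 3′ end, beside 34.6% and 26.3% over the gene, and 18.5% and 31.9% with G before it, beside 21.1% and 39.2%. With U at the 3′ end 31.8% were higher and 11.8% lower in rpa49△ than in WT, beside 30.0% and 23.9%, and with A there 22.7% and 31.1%, beside 24.0% and 38.6%. Between the deletions 7 of 310 positions ending in A were higher in rpa49△ and 61 lower, 2.26% and 19.7% beside 5.51% and 29.0% over the gene. Where pairs of bases are compared here for a deletion against WT, their order was the same over the gene, which holds the segment too. These counts are a description and were not tested.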

How the data were processed

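NET-seq of Pol I was analysed in 9 libraries, 3 per strain, grouped by their titles in the labels. Per the labels' protocols, a linker with a UMI (unique molecular identifier) was ligated to the 3′ ends of RNA from the Pol I immunoprecipitate. The tools are, per the submitters' processing notes, STAR 2.7.1a and cutadapt 3.4, bedtools 2.28.0 beside SAMtools 1.6, R 4.0.2 and bcl2fastq 2.20.00, with build R64. The sources used here do not state whether UMIs were collapsed or how reads from the repeated gene were placed. The authors deposited reads per 1000000 (RPM) for each position, which sum to 1000000 up to the terminator T1 at position 6739 in every library. The deposited ratios and p-values were not used.

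The RPM values were whole multiples of 1 step, so read counts were recovered from the deposited values. At least 99.956% of the values of each library were whole within 0.01 read, and 10 of 61722 were not. Gene totals were 1242139 to 5353045 reads. Libraries were rescaled to 1000000 reads on the whole gene or on mature rRNA. Positions averaging 10 RPM or more over the libraries compared, and 50-nt bins, were tested over the whole gene on log2(RPM + 10), which understates changes of low positions, with limma 3.58.1 (R 4.3.3, lmFit and eBayes with trend). Adjustment was by Benjamini-Hochberg, threshold 0.05. Changes given as log2 come from this fit. Values that each library has once went through exact permutation tests, two-sided (10 distinct splits of 3 against 3, smallest p = 0.1). As an alternative, edgeR 4.0.16 was run on the recovered reads, which called 366, 530 and 225 positions of the segment. Over the gene it called 1248 higher and 1492 lower of 6425, then 1718 and 1905 of 6320, then 693 and 1187 of 6083. The limma script was tested on simulated data. Python 3.11.15, numpy 2.4.6, scipy 1.17.1 and pandas 2.3.3 were used.

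Named positions were the 8 highest in WT and, in each comparison, the 4 largest rises and 4 largest falls among called positions without overlap between groups, and named bins were the 3 largest of each. Further called bins, the densest and sparsest bins and nucleotides 8 and 649 were singled out after their values were seen. The segment, lists and tests were chosen with earlier results of these data known.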

Additional observations from a re-analysis of the deposited data

How the results depend on the processing

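The segment's share of whole-gene reads had no stable direction. Leaving out 1 library gave differences of -0.212 to 0.161 points for rpa34△ against WT, -0.237 to 0.136 for rpa49△ against WT and -0.231 to 0.105 between the deletions. With reads up to T1 as the total, rpa49△ against WT was -0.00596 points, and without the highest 1% of positions rpa49△ against rpa34△ was 0.167. The shares of mature rRNA and of 25S reads and the mean position kept their direction under every alternative run. Leaving out 1 library also turned the Gini difference of rpa34△ against WT (-0.0129 to 0.00218), reads ending in G between the deletions (-0.207 to 0.390 points; -0.0504 without the highest 1% of positions), C after the 3′ end for rpa34△ against WT (-0.0286 to 0.217) and U before it for rpa49△ against WT (-0.440 to 0.126). Called positions numbered 252 to 368 (381 with all libraries), 433 to 529 (534) and 137 to 232 (220) when 1 library was left out, for rpa34△ and rpa49△ against WT and between the deletions. The lowest counts, 252 and 137, were both without rpa34△ replicate 1. Over the gene these fits called 812 to 1300 positions higher and 1173 to 1422 lower of 6393 to 6452 for rpa34△ against WT. The ranges were 1301 to 1642 and 1679 to 2015 of 6240 to 6380 for rpa49△ against WT. Between the deletions they were 369 to 718 and 940 to 1271 of 6008 to 6129.

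Bins depended more on the settings. For rpa34△ against WT, with 0 called, there were 3 on the mature rRNA scale, 3 on the 25S scale, 3 with medians set equal, 9 with 25-nt bins, 1 with 100-nt bins, 5 with the median position of each bin, and 0 to 2 without 1 library. Over the gene, 8 bins were higher and 10 lower of 107 on the mature rRNA scale. On the 25S scale 2 and 4 of 68 were called. Medians set equal gave 9 and 33 of 138, and the median position 23 and 29. There were 35 and 62 of 275 with 25-nt bins and 14 and 14 of 69 with 100-nt bins. Leaving out 1 library gave 9 to 19 and 18 to 26 of 138. For rpa49△ against WT, with 8 called, there were 4 without trend, 20 with 25-nt bins, 5 with 100-nt bins, 13 with the median position, and 5 to 7 without 1 library (5 without rpa49△ replicate 3 or WT replicate 2). Over the gene, 31 bins were higher and 39 lower of 138 without trend, and 35 and 47 with the median position. There were 75 and 100 of 275 with 25-nt bins and 20 and 21 of 69 with 100-nt bins. Leaving out 1 library gave 30 to 38 and 38 to 44 of 138. Between the deletions, with 4 called, there were 2 without trend, 10 with 25-nt bins, 1 with 100-nt bins, 9 with the median position, and 1 to 6 without 1 library (1 without rpa34△ replicate 1). Over the gene, 14 bins were higher and 36 lower of 138 without trend, and 16 and 50 with the median position. There were 31 and 85 of 275 with 25-nt bins and 9 and 18 of 69 with 100-nt bins. Leaving out 1 library gave 9 to 18 and 32 to 43 of 138. Bins of 25 and 100 nt number 45 and 11 in the segment. Of 48 tests of named positions that passed, 42 passed under every alternative, 6 did not in some and 0 turned; of 10 such tests of named bins 2 and 8. The cause of these changes was not tested.

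The replicate numbers showed no clear pairing of the libraries. Deviations of same-numbered libraries correlated at -0.295 to 0.332, and only 1 of 9 correlated best with its own number. With 3 libraries per group this cannot exclude a shared batch. With the number as a replicate block, 311, 507 and 240 positions and 0, 6 and 5 bins were called. Over the gene, 1044 positions were higher and 1359 lower of 6425, then 1598 and 1881 of 6320, then 711 and 1226 of 6083. Of its 138 bins, 14 and 23, then 35 and 43, then 17 and 39 were called. Depth limits the lowest positions of rpa49△, where 1 read was worth 0.638 to 0.805 RPM.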
